A study of Mus musculus with 1 sample.

Results

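The genes described here are those for the secreted niche factors CXCL12 and CSF1 (Cxcl12 and Csf1) and for their receptors (Cxcr4, Ackr3 and Csf1r). They were taken by gene symbol, whatever their values, and are 5 of the 27998 genes in the deposited UMI count table. The table holds 1 single-cell RNA sequencing library from Wild-type C57BL/6 mice at Post-natal Day 8. Testis cells of 3 mice were pooled in equal numbers after selection of spermatogonia on THY1+ magnetic beads, and a small number of unselected testis cells was put back. The mice cannot be told apart in the pool, so the library is 1 sample with no replicate, and no statistical test was made. The selection and the cells put back set how many cells of each class there are, so class sizes are not tissue proportions. The Zscan2 knockout library was not analysed here.

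CXCL12 is a chemokine that signals through CXCR4, a receptor coupled to inhibitory G proteins, and it is known for holding stem and progenitor cells close to the cells that secrete it. ACKR3 binds the same ligand but works through arrestins and takes the ligand up, so it can shape the gradient that CXCR4 cells read. CSF1 is the growth factor that macrophages need to survive and mature, and it acts through the receptor tyrosine kinase CSF1R, which also binds IL-34. In the postnatal testis, spermatogonial stem cells lie on the basement membrane of the tubule among Sertoli cells, with peritubular myoid cells, stromal cells, Leydig cells and macrophages outside.

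Of 970 cell barcodes, with 2655 to 44915 UMIs each (median 9115), 920 were kept. They were clustered without the 5 genes or their pathway genes among the variable genes, so the level of a member does not follow from the clustering. Marker lists gave 324 germ cells, 255 Sertoli-like, 186 stromal-like, 94 peritubular myoid-like and 35 macrophage-like cells. As the clusters were named by these lists, the marker levels describe the classes and do not check the names. Germ markers stood at 1350 CPM in germ cells against 21.6 to 33.1 CPM in the other named classes. Macrophage markers stood at 22349 CPM in macrophage-like cells against 33.1 to 42.7 CPM. Stromal markers were less exclusive, at 6565 CPM in stromal-like, 1640 CPM in myoid-like and 965 CPM in macrophage-like cells. A level is given as CPM, the UMIs of a gene per 1000000 UMIs of all cells of a class, with a 95% Poisson interval that covers counting error only. Germ cells were the deepest class (median 18217 UMIs, against 7446 to 13010 in the others), which raises the chance of seeing 1 UMI in a cell but does not raise CPM. A cluster of 26 cells stayed unnamed because pericyte and T cell genes both led it.

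Cxcl12 (ENSMUSG00000061353; mm10 chr6:117168535-117181367, plus strand) was a stromal transcript in this library. Its 1031 UMIs in stromal-like cells were 90.0% of the 1146 in all kept cells and gave 628 CPM (590.2 to 668). The level was 89.1 CPM (68.9 to 113) in peritubular myoid-like cells, from 66 UMIs. It was 5.40 CPM (3.64 to 7.71) in germ cells, from 30 UMIs, and 3.88 CPM (0.469 to 13.999) in macrophage-like cells, from 2 UMIs. Sertoli-like cells, the largest somatic class, held 4 UMIs or 1.74 CPM (0.475 to 4.46). The order was thus stromal, myoid, then germ, macrophage and Sertoli. The intervals of the first and second places lie apart from each other and from the rest, and the interval of macrophage-like cells covers both germ and Sertoli-like levels. Germ over Sertoli-like cells was 3.10-fold (1.09 to 12.1).

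The stromal level was 360.4-fold that of Sertoli-like cells (counting interval 140.3 to 1325; log2 8.49, 7.13 to 10.37). It was 7.05-fold that of myoid-like cells (5.49 to 9.18) and 116-fold that of germ cells (81.0 to 173). In stromal-like cells 155 of 186 held at least 1 UMI (83.3%, exact binomial interval 77.2 to 88.4%), with a median of 4 UMIs and a highest value of 32. In myoid-like cells 35 of 94 held one (37.2%, 27.5 to 47.8%), and the highest value was 5. Sertoli-like cells, at nearly the same median depth as stromal-like cells (8343 against 8371 UMIs), held one in 4 of 255 cells (1.57%, 0.429 to 3.97%).

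**Figure D1:**
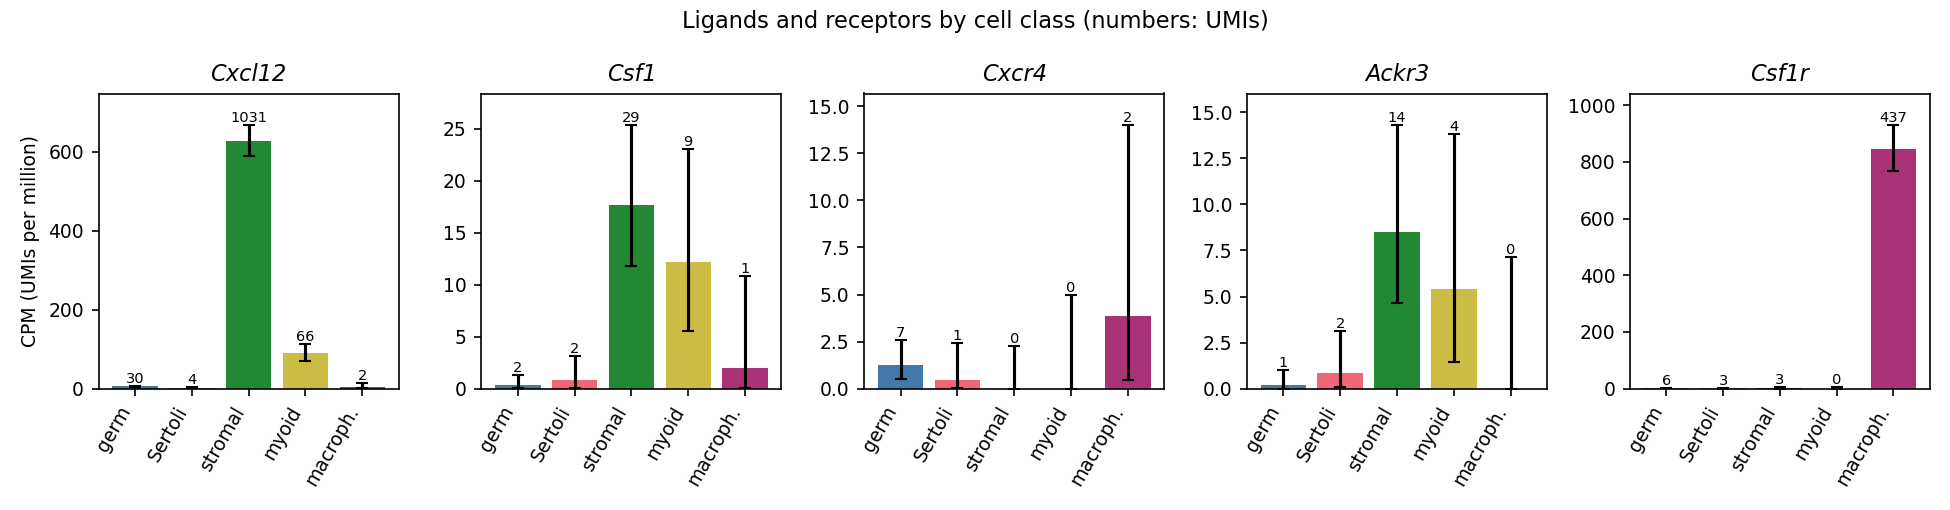
Level of each ligand and receptor in the 5 named classes, in CPM on a linear axis with its own scale per gene; bars are summed UMIs per 1000000, error bars 95% Poisson intervals for counting error, and numbers the UMIs behind each bar. Cxcl12 stands at 628 CPM in stromal-like cells and Csf1r at 847 CPM in macrophage-like cells, while the other 3 genes stay below 20 CPM in every class.

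The few Cxcl12 UMIs in germ and Sertoli-like cells are given beside those of the stromal markers, since free RNA in droplets can give every class a low level of such transcripts. In Sertoli-like cells Cxcl12 stood at 0.277% of its stromal level, below all 6 stromal markers there (0.359 to 1.50%, median 0.525%). In germ cells it stood at 0.860% (0.577 to 1.24%), above 5 of those markers (0.115% for Tcf21 to 0.728% for Igf1), below Pdgfra (1.92%) and with an interval above their median of 0.440%. The part of free RNA in these UMIs was not tested. Among germ cells the progenitor-like had the highest value, 10.0 CPM (5.46 to 16.8), from 14 UMIs. Those like spermatogonial stem cells (SSC-like) stood at 4.04 CPM (1.94 to 7.43, 10 UMIs). The differentiating-like stood at 3.58 CPM (1.31 to 7.78, 6 UMIs). These intervals overlap, and the intervals of the progenitor-like folds over the other 2 begin at 1.02 and 1.01. The 89.1 CPM of myoid-like cells was 14.2% of the stromal level, within the 8.16 to 248% of the stromal markers. Those markers are shared by the classes: Tcf21 and Pdgfra stood at 390.3 and 234 CPM in myoid-like cells. The myoid level was 51.2-fold (19.1 to 193) that of Sertoli-like cells, and how much of it came from free RNA was not tested.

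**Figure D2:**
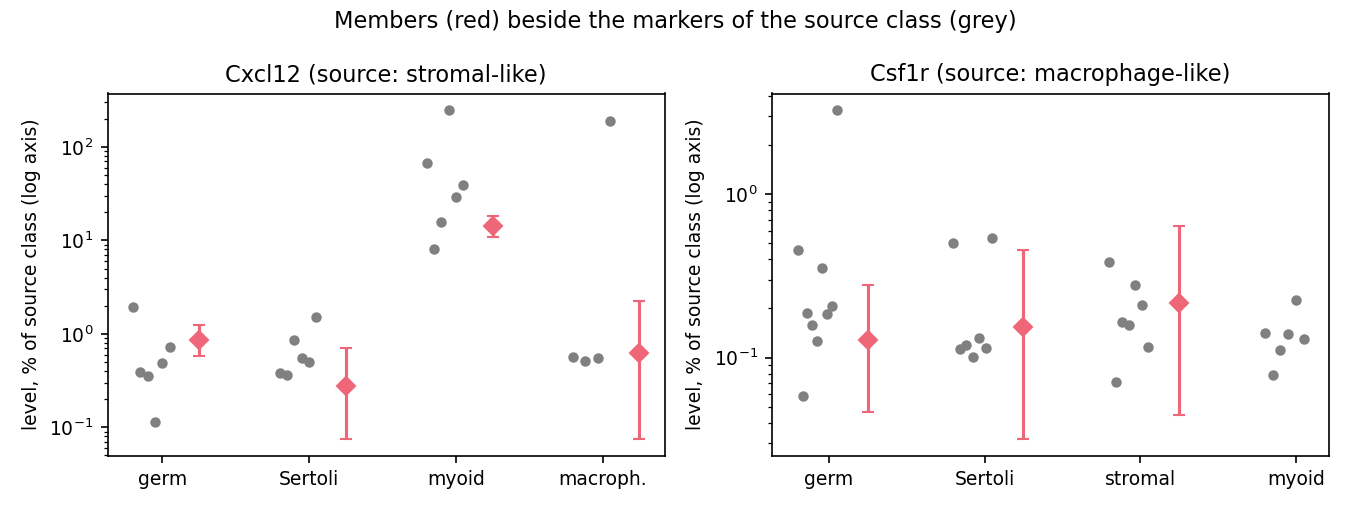
Level in each other class as a percentage of the level in the leading class, on a log axis, for Cxcl12 (left, leading class stromal-like) and Csf1r (right, macrophage-like). Red diamonds are the gene with its 95% counting interval and grey points the markers of the leading class; values of 0 are not drawn. In germ and Sertoli-like cells both genes sit among or below the markers.

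Stromal-like cells were not uniform for Cxcl12. At a finer clustering resolution of 1.2 they fell into clusters of 121 and 65 cells, again without the 5 genes among the variable genes. The larger cluster was led by steroidogenic enzymes of Leydig cells (Cyp17a1, Cyp11a1 and Hsd3b1), whose UMIs lay in few of its cells, as given below. Next came Junb and Fos, with Fos at 446 CPM in the larger and 11.2 CPM in the smaller. The smaller cluster was led by Tppp3, Crip1, Clec3b and Dpt. Cxcl12 was at 385 CPM (348 to 425) in the larger and 1025 CPM (947 to 1108) in the smaller, where 65 of 65 cells held it against 90 of 121. The smaller cluster was thus 2.66-fold higher (2.35 to 3.03), which is rank 45 of 2084 genes with at least 100 UMIs in these cells, and median depths were close (9232 and 7837 UMIs). As the clusters were drawn from the same cells, this is a description.

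The Leydig markers, 4 genes of steroid synthesis with Insl3 and the LH receptor gene Lhcgr, were concentrated in few of these cells. Of them, 11 of the 186 stromal-like cells held at least 3 Leydig marker UMIs, all in the larger cluster, and together they held 5152 CPM of these markers. Cxcl12 was nearly missing from them: 1 UMI in 1 of 11 cells, or 7.20 CPM (0.182 to 40.1), at a median depth of 12294 UMIs. The 157 stromal-like cells with no Leydig marker UMI held 982 UMIs or 736 CPM (691 to 784), with 141 of 157 cells positive, at a median depth of 7987. The 18 cells with 1 or 2 such UMIs lay between, at 284 CPM (209 to 376). Within the larger cluster alone, the 94 cells without Leydig UMIs stood at 492 CPM, and the Leydig-marked cells were lower by a log2 ratio of -6.10 (-11.40 to -3.61). This split was chosen after values were seen. Csf1 could not be placed between these cells, with 1 UMI in the 11 Leydig-marked cells (7.20 CPM, 0.182 to 40.1) and 22 UMIs in the 157 unmarked ones (16.5 CPM, 10.3 to 24.98).

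**Figure D3:**
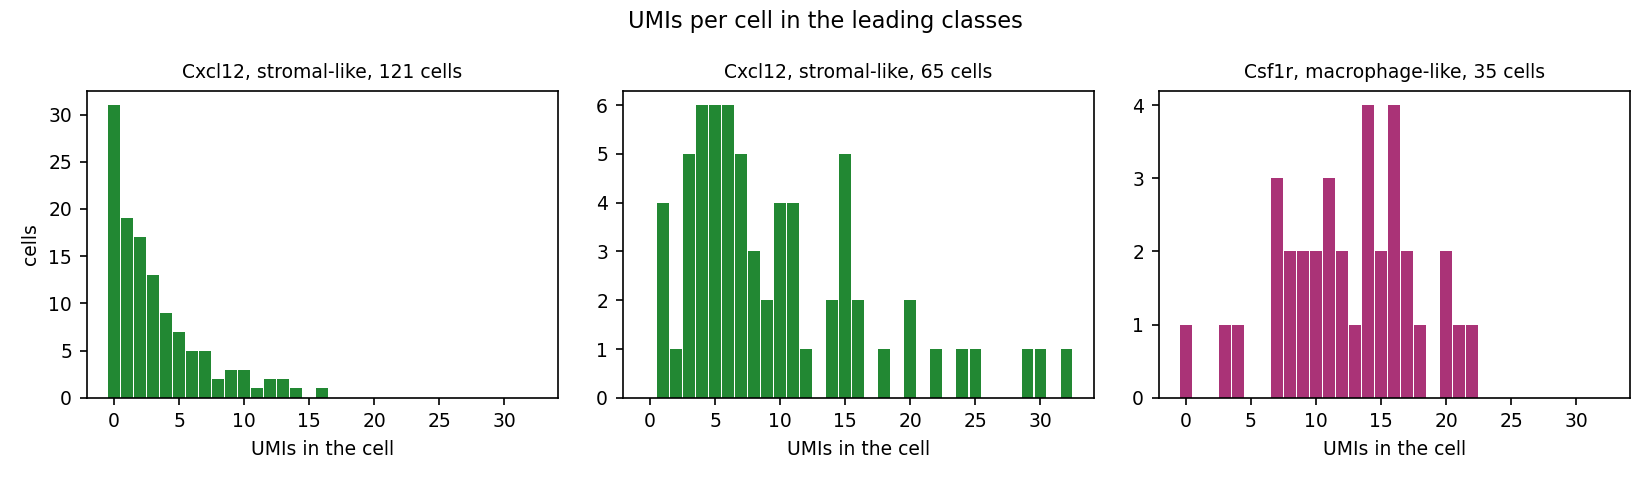
Cells (vertical axis) by the number of UMIs they held (horizontal axis) for Cxcl12 in the stromal-like clusters of 121 and 65 cells and for Csf1r in the 35 macrophage-like cells. All 31 stromal-like cells without Cxcl12 are in the larger cluster, and 1 macrophage-like cell lacks Csf1r.

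Csf1 (ENSMUSG00000014599; mm10 chr3:107741048-107760469, minus strand) was found at a far lower level, with 43 UMIs in all kept cells. Stromal-like cells held 29 of them, or 17.7 CPM (11.8 to 25.4), in 25 of 186 cells (13.4%, 8.89 to 19.2%). Myoid-like cells held 9, or 12.2 CPM (5.56 to 23.1), in 7 of 94 cells. Germ and Sertoli-like cells held 2 UMIs each (0.360 and 0.871 CPM), and macrophage-like cells, the class with most Csf1r UMIs, held 1 (1.94 CPM, 0.0491 to 10.8). Stromal and myoid levels could not be separated: the log2 ratio of myoid over stromal was -0.54 with an interval of -1.80 to 0.58. Both lay above germ and Sertoli-like cells, by 49.1-fold (12.4 to 424) and 20.3-fold (5.13 to 175) for stromal-like cells. Of the 25 stromal-like cells with Csf1, 20 also held Cxcl12 (80.0%), against 135 of the 161 without it (83.9%). By level the order was the other way, with Cxcl12 at 809 CPM in the cells with Csf1 and 601 CPM in those without. Il34, the other CSF1R ligand, was seen as 2 UMIs in the unnamed cluster and in no named class, and Csf2 and Csf3, which encode other myeloid growth factors, had 0 UMIs.

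Ackr3 (ENSMUSG00000044337; mm10 chr1:90203980-90216751, plus strand), the scavenging receptor, was detected in the same stromal class as its ligand. Of 21 UMIs, 14 were in stromal-like cells (8.53 CPM, 4.66 to 14.3), 4 in myoid-like cells (5.40 CPM, 1.47 to 13.8), 2 in Sertoli-like cells, 1 in a germ cell and 0 in macrophage-like cells. The stromal level was 47.4-fold that of germ cells, with a wide interval (7.21 to 2003; log2 5.57, 2.85 to 10.97) since it rests on 1 germ cell UMI. Stromal and myoid levels again overlapped (1.58-fold, 0.496 to 6.59). Of the 13 stromal-like cells with Ackr3, 12 also held Cxcl12 (92.3%), against 143 of the 173 without it (82.7%), which were shallower (median 8229 against 9810 UMIs). Cxcl12 stood at 874 CPM in the cells with Ackr3 and 605 CPM in those without.

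Measured against all other kept cells, a log2 ratio of CPM of at least 1 was used as a mark of a raised gene, among 12989 genes with at least 20 UMIs. In stromal-like cells 12.2% of these genes passed, and 3 of the 4 members that could be measured this way did: Cxcl12 (5.66, rank 44), Csf1 (3.55) and Ackr3 (3.50). In myoid-like cells 10.8% passed and so did Csf1 (1.86) and Ackr3 (1.69), while Cxcl12 was at -0.25, with the stromal-like cells among the others. In macrophage-like cells 12.8% passed and of the members Csf1r did (9.52, rank 25). In germ cells and Sertoli-like cells 25.3% and 17.1% passed, and 0 of 4 members did. Cxcr4 had too few UMIs for this measure. The minimum of 20 UMIs counted the class itself. Without stromal-like cells, Ackr3 (14 of its 21 UMIs there) and Csf1 (29 of 43) would not reach it. Nor would Csf1r without macrophage-like cells (437 of 449). The counts of members that passed are therefore a description and give no support. With a stricter mitochondrial limit of 5%, Csf1 in myoid-like cells fell short of the mark at 0.51, and Cxcl12 and Csf1 in stromal-like cells stood at 3.38 and 2.22.

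Cxcl12, Csf1 and Ackr3 were each raised in stromal-like cells as a class, and Csf1 and Ackr3 in myoid-like cells too. By cell, 1 of the 13 stromal-like cells with Ackr3 held Csf1 (7.69%), against 24 of the 173 without (13.9%). Cxcr4 had 0 UMIs in stromal-like cells, but its counts were too low to show that it was absent. The 250 bases before the start of each of these genes are shown (RefSeq, build GRCm38.p6, 5′ to 3′ on the strand of the gene). They lie at chr6:117168285-117168534 for Cxcl12, chr3:107760470-107760719 for Csf1, chr1:90203730-90203979 for Ackr3 and chr1:128592300-128592549 for Cxcr4. Capitals mark a TATA box, TATAAA, or a GC box, GGGCGG, on either strand.
Cxcl12: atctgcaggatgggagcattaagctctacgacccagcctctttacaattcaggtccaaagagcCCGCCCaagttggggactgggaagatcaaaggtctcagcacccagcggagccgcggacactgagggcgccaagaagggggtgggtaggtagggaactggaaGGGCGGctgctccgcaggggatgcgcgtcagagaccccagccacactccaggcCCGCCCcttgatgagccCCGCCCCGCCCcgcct
Csf1: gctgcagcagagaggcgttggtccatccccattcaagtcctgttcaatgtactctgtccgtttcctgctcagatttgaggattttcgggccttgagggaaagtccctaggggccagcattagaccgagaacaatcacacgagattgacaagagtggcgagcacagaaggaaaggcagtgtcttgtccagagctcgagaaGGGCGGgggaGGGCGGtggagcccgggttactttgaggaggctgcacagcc
Ackr3: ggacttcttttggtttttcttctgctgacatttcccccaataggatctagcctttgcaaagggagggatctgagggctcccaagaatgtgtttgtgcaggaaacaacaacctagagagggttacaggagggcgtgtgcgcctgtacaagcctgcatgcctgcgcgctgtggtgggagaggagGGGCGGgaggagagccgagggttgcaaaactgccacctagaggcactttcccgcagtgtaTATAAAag
Cxcr4: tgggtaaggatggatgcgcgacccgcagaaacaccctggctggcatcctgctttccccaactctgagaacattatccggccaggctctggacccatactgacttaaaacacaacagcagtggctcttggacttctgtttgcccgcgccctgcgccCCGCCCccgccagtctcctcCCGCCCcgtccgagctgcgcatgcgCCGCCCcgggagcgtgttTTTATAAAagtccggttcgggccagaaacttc
The Cxcl12 window held 5 GC boxes, of which the last 2 share a base, and no TATA box. Csf1 held 2 GC boxes and no TATA box. Ackr3 held 1 GC box and a TATA box whose first base lies 8 bases before the annotated start. Cxcr4 held 3 GC boxes and TATAAA 30 bases before the start, overlapping a copy on the opposite strand. Of 32851 windows of this length in the table, 12.4% held TATAAA and 32.7% held GGGCGG. The 3 members raised in stromal-like cells therefore do not share a TATA box, and all windows shown, that of Cxcr4 included, held a GC box. The windows of those 3 members were 54.0 to 64.4% G and C. These matches describe letters and not binding.

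Cxcr4 (ENSMUSG00000045382; mm10 chr1:128588199-128592293, minus strand), the signalling receptor for CXCL12, was at the limit of detection, with 10 UMIs in 10 of 920 cells. Germ cells held 7 of them (1.26 CPM, 0.507 to 2.60), Sertoli-like cells 1 (0.436 CPM, 0.0110 to 2.43) and macrophage-like cells 2 (3.88 CPM, 0.469 to 13.999). Stromal-like and myoid-like cells held 0, which allows up to 1.83 and 4.05 CPM by 3 counts, and 2.25 and 4.98 CPM by the Poisson interval. The log2 ratio of germ over somatic cells was 1.17, with an interval from -0.96 to 3.75 that includes 0, so the order of the classes could not be resolved at this depth.

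Within germ cells the 7 UMIs lay in 7 SSC-like cells, 1 each. That is 7 of 112 SSC-like cells (6.25%, 2.55 to 12.5%) or 2.83 CPM (1.14 to 5.82). Progenitor-like cells held it in 0 of 77 cells, which allows a share of cells with a UMI of up to 3.90% by 3 counts and 4.68% by the exact binomial interval. Differentiating-like cells held it in 0 of 135, which allows up to 2.22% and 2.70%. The SSC-like level was at least 1.32-fold higher than the progenitor-like floor and at least 1.58-fold higher than the differentiating-like floor, but the counting intervals of these ratios reach down to 0.815 and 0.977, so a difference was not shown. In Sertoli-like cells, taken as a class that should lack the receptor, 1 of 255 held a UMI (0.392%) at a median depth of 8343 UMIs against 22454 in SSC-like cells. Thinned to 5000 UMIs per cell, the expected shares were 1.26% in SSC-like and 0.122% in Sertoli-like cells, both near the level of 1 UMI. The place of the 7 cells depends on where clusters are cut: at a resolution of 1.2, SSC-like cells were 45 with 5 UMIs and progenitor-like cells 137 with 2, and at 0.3 all 7 fell in a cluster of 192 named progenitor-like.

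The 7 cells had 20743 to 33054 UMIs and 7 of 7 held germ markers. 2 of them held macrophage marker UMIs, 3 UMIs in all, compared with 60.7% of all SSC-like cells holding at least 1. Id4 and Lhx1, both markers of the stem cell state, stood at 56.0 and 168 CPM in them against 18.3 and 55.7 CPM in the other 105 SSC-like cells (log2 1.62, 0.46 to 2.63, and 1.59, 0.97 to 2.18). The other 4 genes of the same marker list had intervals that include 0: Etv5 (44.8 against 57.0 CPM, log2 -0.35), Bcl6b (33.6 against 35.2 CPM, -0.07), Nanos2 (16.8 against 13.5 CPM, 0.32) and Eomes (16.8 against 6.09 CPM, 1.46). The share of all genes whose interval leaves out 0 in this contrast was not computed, so the list is not read as a trait of the 7 cells. Gfra1 and Ret, the receptor pair for GDNF, stood at 61.7 against 56.6 CPM and 112 against 71.8 CPM, with intervals that include equality. Stra8, which responds to retinoic acid, was 33.6 against 113 CPM (log2 -1.75, -3.21 to -0.61), but all 6 of its UMIs were in 1 cell. In the same differentiating list, Uchl1 (-0.72) and Sycp3 (-0.91) also had intervals below 0. Those of Kit (-0.63), Dmrtb1 (-1.36) and Rhox13 (0.38) include 0. In the progenitor list, Nanos3 was 16.8 against 74.0 CPM (-2.14, -4.43 to -0.57). The intervals of Sox3 (-2.31), Upp1 (-0.80), Msi2 (-0.54) and Eno1 (0.07) include 0. Neurog3 and Rarg had 0 UMIs in the 7 cells, against 8 and 16 in the other 105. Sohlh1, of the germ list, was 78.5 against 173 CPM (-1.14, -2.03 to -0.38). The other germ list genes had intervals that include 0: Ddx4 (0.08), Dazl (-0.01), Zbtb16 (0.11), Taf4b (0.08) and Tdrd1 (-0.31). The genes named here were chosen after their values were seen. The cells were picked by 1 UMI of a rare transcript, and the intervals treat UMIs as independent although they come from 7 cells.

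**Figure D4:**
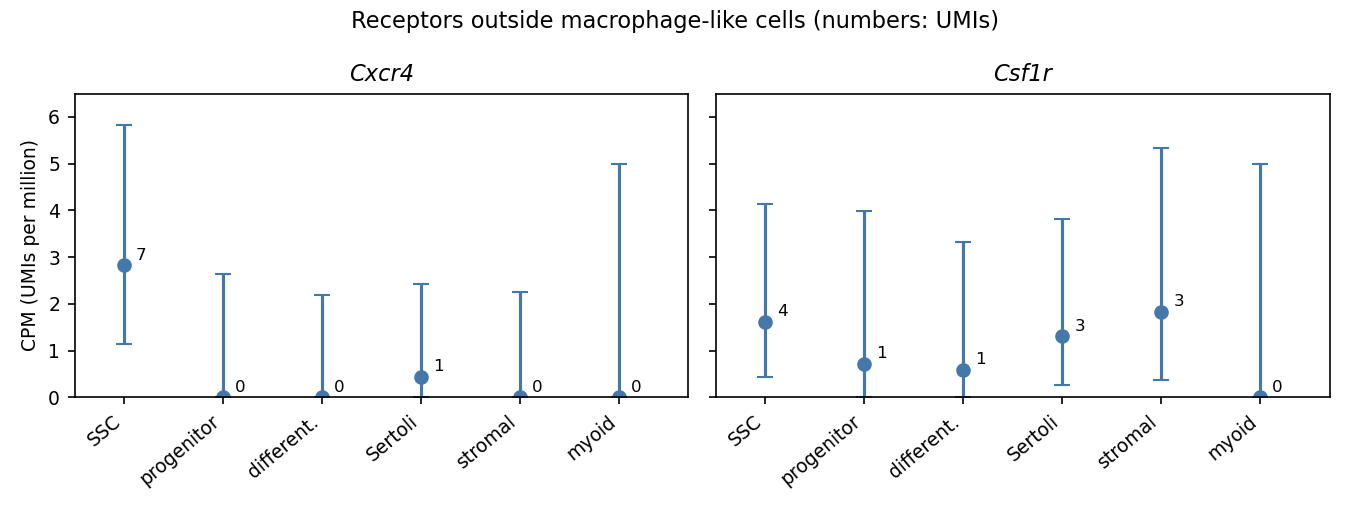
Cxcr4 and Csf1r in CPM (linear axis) in 3 germ cell classes and 3 somatic classes, with macrophage-like cells left out; points are summed UMIs per 1000000, bars 95% Poisson intervals and numbers the UMIs. Cxcr4 has 7 UMIs in SSC-like cells and 0 in the other germ cell classes, and the intervals overlap for both genes.

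Csf1r (ENSMUSG00000024621; mm10 chr18:61100598-61132149, plus strand) was a macrophage transcript. Macrophage-like cells held 437 of 449 UMIs, or 847 CPM (769 to 930.0), in 34 of 35 cells (97.1%, 85.1 to 99.9%). Per cell the median was 13 UMIs, the quartiles were 9 and 16 and the highest value was 22. Germ cells held 6 UMIs in 6 cells (1.08 CPM, 0.396 to 2.35), Sertoli-like cells 3 (1.31 CPM) and stromal-like cells 3 (1.83 CPM). Myoid-like cells held 0, which allows 4.05 CPM by 3 counts and 4.98 CPM by the Poisson interval. The macrophage level was 784-fold that of germ cells (357 to 2148; log2 9.61, 8.48 to 11.07). The annotation places the microRNA gene Mir6983 and the gene Hmgxb3 over parts of Csf1r.

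The Csf1r UMIs outside macrophage-like cells were at the low levels that macrophage markers also had there, and the part of free RNA in them was not tested. The germ level was 0.128% of the macrophage level, below the median of the 9 macrophage markers in germ cells (0.188%, range 0.0584 to 3.28%), and the Sertoli-like and stromal-like values of 0.154% and 0.216% lay above marker medians of 0.114% and 0.158%, inside the ranges of the markers. The share of germ cells with a UMI was 1.85% (0.683 to 3.99%) at a median depth of 18217 UMIs, and in Sertoli-like cells, which should lack the gene, 1.18% at 8343. At least 1 macrophage marker UMI was present in 48.5% of germ cells. The 6 cells carried 144 germ marker UMIs and 3 macrophage marker UMIs. SSC-like cells held 4 of these Csf1r UMIs, and the progenitor-like and the differentiating-like 1 each.

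The other genes of the CXCL12 axis were raised in different classes. Of 17 list genes measured, 4 were raised in stromal-like cells, where 12.2% of all genes were (median log2 -0.57, against -0.54 over all genes). In myoid-like cells 4 were (background 10.8%) and in macrophage-like cells 5 (12.8%; median 0.19 against -0.88). In Sertoli-like cells 3 were, a share at the background of 17.1% (-0.23 against -0.16). In germ cells 1 was, below the background of 25.3% (-1.07 against 0.04). In the list medians, genes at 0 were put at 3 counts, which was not done over all genes. The myoid-like median of 0.12 fell on such a gene, Cd74, and is not set against the -0.61 over all genes. Cxcl14, a chemokine that can bind CXCR4, was at 60.8 CPM in myoid-like cells and 7.92 CPM in stromal-like cells. Hspg2, which encodes the basement membrane proteoglycan perlecan, was at 164 CPM in stromal-like and 200 CPM in myoid-like cells. Mif, a further CXCR4 ligand, was broad, from 415 CPM in stromal-like to 870 CPM in germ cells, while its receptor Cd74 was at 62.0 CPM in macrophage-like cells and at most 1.31 CPM elsewhere. Arrb2, which encodes an arrestin, was at 134 CPM in macrophage-like cells and 76.7 CPM in germ cells, the one list gene raised there, against 9.45 to 14.01 CPM in the other classes.

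The CSF1 axis list is made largely of myeloid genes, among them Spi1, Irf8, Tyrobp and Csf2rb. That it was concentrated where Csf1r was follows from this make-up and says little about the axis itself. In macrophage-like cells 12 of 15 measured genes were raised, where 12.8% of all genes were (median log2 4.25, against -0.88 over all genes). They included Spi1, the transcription factor PU.1 that drives Csf1r (355 CPM), Maf (971 CPM), Tyrobp, a signalling adaptor (3864 CPM), and Csf2rb, a chain of the GM-CSF receptor (34 of its 35 UMIs). In the other classes 2 genes or fewer passed: Csf2ra and Sos1 in Sertoli-like cells (background 17.1%; median -2.38 against -0.16), Maf in stromal-like cells (12.2%; -1.35 against -0.54), Plcg2 in germ cells (25.3%; -2.50 against 0.04) and 0 in myoid-like cells (10.8%; -1.39 against -0.61). The list medians again put genes at 0 at 3 counts, unlike the medians over all genes. Spi1 itself was at 1.80 CPM in germ cells, in the same low range as Csf1r.

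Genes with the profile most like each member over the 11 clusters were found by the correlation of log2(CPM + 10), among genes with at least 100 UMIs. For Cxcl12 they were Ecm2, Col5a2, Meg3, Col3a1 and Matn2 (r 0.98 to 0.99), 4 of them extracellular matrix genes. For Csf1 they were Vcan, D630033O11Rik, Hhip, Abi3bp and Traf3ip2 (0.98 to 0.99), and for Ackr3 Cyp26b1, which degrades retinoic acid, Ldb2, Col23a1, Wfdc1 and Traf3ip2 (0.97 to 0.98). For Csf1r they were C3ar1, Cybb, Adgre1, Wfdc17 and Ms4a6c, all at an r of 0.998. For Cxcr4, with 10 UMIs, the nearest reached an r of 0.84 to 0.89 (Trf, Dnajc13, Diaph1, Pla2g7 and Ier3), and this order has little weight. Ackr3 with 21 UMIs and Csf1 with 43 also rest on few counts, which limits the weight of their order. Col3a1 and Adgre1 are among the markers that named the classes. The clusters share 1 library, and r is given as a description.

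The 26 cells of the unnamed cluster added a last source. In its 10 cells led by pericyte markers, the contractile cells of small vessels, Cxcl12 had 11 UMIs in 4 cells (177 CPM), and in the 3 led by endothelial markers 2 UMIs in 1 cell. In the 12 led by T cell markers Cxcl12, Cxcr4 and Csf1r had 0 UMIs among 76111. Over all 26 cells, 0 UMIs of Cxcr4 or Csf1r still allow 18.2 CPM by 3 counts. The 12 cells allow more, so none of these genes was shown to be absent from them.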

How the data were processed

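The authors aligned reads to mm10 with Cell Ranger (2.1.0 per the labels) and deposited UMI counts per gene and barcode, not normalized, with 2655 to 44915 UMIs per barcode. Cells were kept if they had 500 or more genes, a mitochondrial share under 10% and no scrublet (scanpy 1.11.5) call: 10 barcodes failed on genes, 36 on mitochondrial share and 4 as doublets. Counts were clustered in Seurat 5.3.0 (R 4.3.3) after log-normalization to 10000, with 14 principal components at resolution 0.5, and germ cells were clustered again. A cluster took the name of the class with the highest mean log-normalized marker difference and stayed unnamed when its 10 leading genes held more markers of another class, or as many with at least 1 of each. Leading genes were ranked by geometric means over cells. That ranking was chosen after summed CPM had left 189 germ cells unnamed through 1 barcode rich in Hba-a1. Gene members, marker lists and pathway lists were chosen with earlier results of these data known. Named genes are the 5 members, the list genes at the extremes, ligands and receptors, and the 5 genes most like each member. A gene of the CSF1 axis list is not reported here and was left out of the counts. Intervals are exact Poisson, Clopper-Pearson and conditional binomial, at 95%, and cover counting error only. A count of 0 allows 3 counts. Intervals were tried on simulated Poisson sums per class, which hold no spread between cells and so could not test for it. In stromal-like cells the variance of Cxcl12 UMIs per cell was 6.68 times the mean. Gene positions are from GENCODE vM21 and promoters from RefSeq. No p-value was computed, as there is 1 library. The alternatives were other filters, variable genes, resolutions, principal components, count minimums, ratios and scales. Csf1r had 20 UMIs in removed barcodes, and the other members 0 to 2.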

Additional observations from a re-analysis of the deposited data

How the results depend on the processing

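No paired analysis was possible because there is 1 library. Of the 5 ratios between named classes listed next, none changed direction under any setting that gave a value. The log2 ratio of Cxcl12 in stromal-like over Sertoli-like cells ran from 8.13 to 8.87, of Csf1r in macrophage-like over germ cells from 8.51 to 9.85, of Ackr3 in stromal-like over germ cells from 5.41 to 6.39, of Csf1 in myoid-like over stromal-like cells from -1.17 to -0.47 and of Cxcr4 in germ over somatic cells from 0.73 to 1.53. Cxcr4 in SSC-like cells ran from 2.70 to 4.93 CPM where such a class was named. A mitochondrial limit of 5% left 67 germ cells with 0 Cxcr4 UMIs, and leading genes by summed CPM, an alternative added after seeing the data, left 135 germ cells with 0. With 0 germ UMIs no log2 ratio of Cxcr4 could be formed. Its range above leaves these settings out. Under summed CPM, the 189 germ cells left unnamed were those that held the 7 Cxcr4 UMIs in the main setting. The 5% limit kept 442 of the 920 cells. The 0 therefore reflects which cells stayed in the germ class and does not place germ cells against somatic cells. Over all other cells, Csf1 in myoid-like cells was 0.51 under the 5% limit, and Cxcl12 in stromal-like cells was 3.38 on the log2 scale under the 5% limit and 5.06 to 5.18 with vst genes, per-cell means or thinning, against 5.66, and in myoid-like cells it ran from -1.88 to 0.44, changing sign with vst genes. Counts of raised genes were 3288 (germ), 2227 (Sertoli-like), 1591 (stromal-like), 1397 (myoid-like) and 1663 (macrophage-like). With at least 1 UMI the germ, stromal-like and myoid-like counts became 5837, 2670 and 2195. With at least 100 UMIs the 5 counts were 2145, 1476, 874, 754 and 990, and with a log2 ratio of at least 2 they were 1438, 876, 721, 575 and 807. The low counts of Cxcr4, Ackr3 and Csf1 give wide counting intervals, and the spread between mice is unknown.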

Other observations

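Chemokines that act on myeloid cells were also divided between classes. Cx3cl1, the ligand of the receptor CX3CR1, was at 64.8 CPM in peritubular myoid-like cells and at most 6.70 CPM in the other named classes. Its receptor gene Cx3cr1 was at 1135 CPM in macrophage-like cells and at most 4.05 CPM in the other named classes. The unnamed cluster held 3 UMIs of each gene, and 3 UMIs there amount to 18.2 CPM. Ccl2 and Ccl7, attractants of monocytes, were made mainly by the macrophage-like cells themselves, with 111 of 116 and 87 of 89 UMIs. Cxcl16 was found in stromal-like (44.5 CPM), myoid-like (55.4 CPM) and macrophage-like cells (67.8 CPM), while all 33 UMIs of its receptor gene Cxcr6 were in the unnamed cluster that pericyte and T cell genes led. Of the 8 list genes with enough UMIs, 6 were raised in macrophage-like cells, where 12.8% of all genes were. The list median log2 there was 6.21, against -0.88 over all genes. In myoid-like cells 2 were raised (background 10.8%), and in stromal-like cells 1 (12.2%; -1.36 against -0.54). In germ (25.3%; -3.67 against 0.04) and Sertoli-like cells (17.1%; -2.66 against -0.16) 0 were. Genes at 0 were put at the limit of 3 counts in the list medians but not over all genes. The myoid-like median of 0.47 rests on Ccr1 and Cxcr6, with 0 UMIs there, and is not set against -0.61. No test was made, as there is 1 library.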
